A study of Mus musculus with 20 samples.

Results

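The 10 genes described here belong to the semaphorin and plexin families, with 5 semaphorins (Sema7a, Sema4a, Sema4b, Sema4c and Sema4d) and 5 plexins (Plxnc1, Plxnb2, Plxnd1, Plxna1 and Plxna3). They were followed through 24 h of Ikaros induction in a mouse pre-B cell line and were picked by symbol out of 56239 genes in the count table, with Sema7a picked because its level was among those that dropped most by 30 min. Of the 10 genes, 9 had at least 10 counts in at least 2 libraries and were tested among 16601 genes, while Sema4c had 2 counts in all and was not tested. The levels of most of these genes were lower after induction, but at different times. Sema7a was at 13.5% of its 0 h level by 30 min, Sema4b went down by 2 h and ended above its starting level, and Plxna3 was near 2 times its 0 h level at 2 h.

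The cells were B3 cells, a mouse pre-B line transduced with a retrovirus that carries Ikaros-ERt2, in which a zinc finger transcription factor of lymphocyte development is fused to a part of the estrogen receptor that holds it out of the nucleus until 4-hydroxytamoxifen (4-OHT) is added. All 20 libraries came from these transduced cells, with 2 libraries at each of 10 time points: 0 h without treatment, and 30 min, 1, 2, 6, 12, 15, 18, 21 and 24 h after 500 nM 4-OHT. RNA bound to chromatin was sequenced, so the counts hold much unspliced RNA and lie nearer to transcription than those of total RNA. No group here received 4-OHT without the fusion protein or vehicle alone, so the effects of the drug, of nuclear Ikaros and of time in culture cannot be told apart, and the fusion protein was present in addition to the cells' own Ikaros. The labels do not say whether the libraries of a time point came from separate cultures, and p-values then measure only the spread between these libraries. In such bulk samples, fewer cells of a type and less RNA per cell cannot be told apart.

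Libraries held between 33296158 and 46868954 counts in genes. The libraries of a time point differed by somewhat more than sampling noise at 7 time points (chi-square per degree of freedom from 1.26 to 2.58, the latter at 24 h). They differed more at 12, 18 and 21 h (9.95, 14.9 and 4.78). Each gene's spread was estimated jointly over all 20 libraries. Standard errors (SE) and p-values at 12, 18 and 21 h therefore do not carry the wider spread there and may be too small. The cells carried pre-B transcripts, with a summed level of 12 markers from 8303 to 16500 CPM (counts scaled to a common library size) and only Rag1 and Rag2 at 0 counts in every library, while summed T cell and erythroid markers stayed at or under 1.43 and 0.0339 CPM. Ikzf1, which encodes Ikaros, had 4845 and 4838 CPM at 0 h and 9227 and 8380 CPM at 24 h; whether transgene reads were counted there is not given in the sources used here.

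Semaphorins are secreted, transmembrane or lipid-anchored proteins that were first known as guidance cues for growing axons, and plexins are their main receptors. A plexin that binds a semaphorin changes the activity of small GTPases, and through them the actin cytoskeleton and integrin adhesion. In the immune system, Sema7a is a lipid-anchored ligand of Plxnc1 and of the integrin chain Itgb1, Sema4d (CD100) binds B-type plexins and the lymphocyte receptor Cd72, and Plxnd1 is a receptor for Sema3e that also binds Sema4a. Plxna1 and Plxna3 work with neuropilins as receptors of secreted class 3 semaphorins, and Plxna1 also pairs with the adaptor Tyrobp.

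Ikaros binds DNA at a GGGAA core. Sequences here run 5′ to 3′ on the gene's strand, in lower case with GGGAA or its reverse complement TTCCC in capitals. The 250 bases before the RefSeq start of 5 of the genes are printed, for Sema4a before the most upstream of 4 starts. They are the gene with the largest early drop (Sema7a, chr9:57939862-57940111, plus strand, GRCm38.p6), its receptor (Plxnc1, chr10:94944846-94945095, minus strand), a ligand and a receptor that both fell early and stayed low (Sema4a, chr3:88461183-88461432, minus strand, and Plxnd1, chr6:115995006-115995255, minus strand) and the gene with its highest level at 2 h (Plxna3, chrX:74328816-74329065, plus strand).
Sema7a: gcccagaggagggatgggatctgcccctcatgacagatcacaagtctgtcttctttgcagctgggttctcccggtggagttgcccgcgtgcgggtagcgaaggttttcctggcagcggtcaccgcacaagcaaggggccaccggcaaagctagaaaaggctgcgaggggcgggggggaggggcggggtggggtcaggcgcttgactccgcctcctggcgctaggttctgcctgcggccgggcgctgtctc
Plxnc1: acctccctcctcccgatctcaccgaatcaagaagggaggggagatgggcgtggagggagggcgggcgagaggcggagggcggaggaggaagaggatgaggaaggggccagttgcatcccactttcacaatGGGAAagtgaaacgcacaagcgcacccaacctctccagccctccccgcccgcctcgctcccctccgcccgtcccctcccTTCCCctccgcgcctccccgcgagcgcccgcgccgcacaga
Sema4a: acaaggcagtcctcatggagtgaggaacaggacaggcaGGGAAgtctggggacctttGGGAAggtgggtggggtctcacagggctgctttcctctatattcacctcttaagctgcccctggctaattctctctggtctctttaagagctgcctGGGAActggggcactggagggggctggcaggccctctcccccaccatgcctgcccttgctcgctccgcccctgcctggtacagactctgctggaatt
Plxnd1: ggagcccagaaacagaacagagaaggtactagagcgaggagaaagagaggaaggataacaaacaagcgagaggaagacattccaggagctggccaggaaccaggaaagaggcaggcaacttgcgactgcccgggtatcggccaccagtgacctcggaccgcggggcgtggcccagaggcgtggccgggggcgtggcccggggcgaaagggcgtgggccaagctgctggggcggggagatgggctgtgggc
Plxna3: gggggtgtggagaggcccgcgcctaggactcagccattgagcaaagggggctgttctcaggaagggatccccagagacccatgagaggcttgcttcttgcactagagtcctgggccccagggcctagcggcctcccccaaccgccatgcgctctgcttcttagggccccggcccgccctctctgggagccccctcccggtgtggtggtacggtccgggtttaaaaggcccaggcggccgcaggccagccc
The stretches before Sema7a, Plxnd1 and Plxna3 held no GGGAA on either strand, that of Plxnc1 held 2 matches and that of Sema4a held 3, of which 2 were TGGGAA. The paper counted the shorter GGAA and GGGA and their reverse complements as Ikaros motifs. These were not counted here, and letters of this kind also stand in the stretches of Sema7a, Plxnd1 and Plxna3. A stretch without GGGAA is therefore not one without an Ikaros motif as the paper counts it. RefSeq windows of 300 bases (250 before and 50 after a start) were given for 9 of the 10 genes, all but Plxna1. GGGAA stood in a window of 6 of these 9 genes and the longer TGGGAA, which contains it, in a window of 4, beside 65.5% and 28.3% of the 27025 genes with a window. A match is a run of letters and not a measured binding site, and the genes have from 1 to 4 windows each. Counted per window, GGGAA stood in 13 and TGGGAA in 4 of the 17 windows of these genes, beside 62.7% and 25.6% of all 32851 windows.

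Levels of different genes were compared per kb of the annotated gene from start to end, because reads in introns were counted. At 0 h, Sema4d stood first with 4.09 ± 0.0554 CPM per kb (SD, n = 2). Plxnb2 (2.18 ± 0.0209), Plxna3 (1.71 ± 0.077), Sema4b (1.16 ± 0.00341), Sema7a (1.13 ± 0.00299), Plxnd1 (1.09 ± 0.0266) and Plxna1 (0.839 ± 0.00167) followed, and Plxnc1 (0.175 ± 0.00886) and Sema4a (0.0721 ± 0.000257) came last. The ranges of neighbours in this order did not overlap between libraries, although Sema4b, Sema7a and Plxnd1 lay within a few percent of each other. Divided by exon length, Plxna3 moved from the third to the seventh place and Sema4b and Sema7a moved up to the second and the third. At 24 h, Sema4b was first with 2.58 ± 0.0271 CPM per kb and Sema4d followed in the fourth place with 1.26 ± 0.00947, and Sema7a (0.115 ± 0.0147) had moved from the fifth to the eighth place. Divided by exon length, Sema4d was in the second place at 24 h, with 17.8 CPM per kb beside 18.1 for Sema4b.

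**Figure D1:**
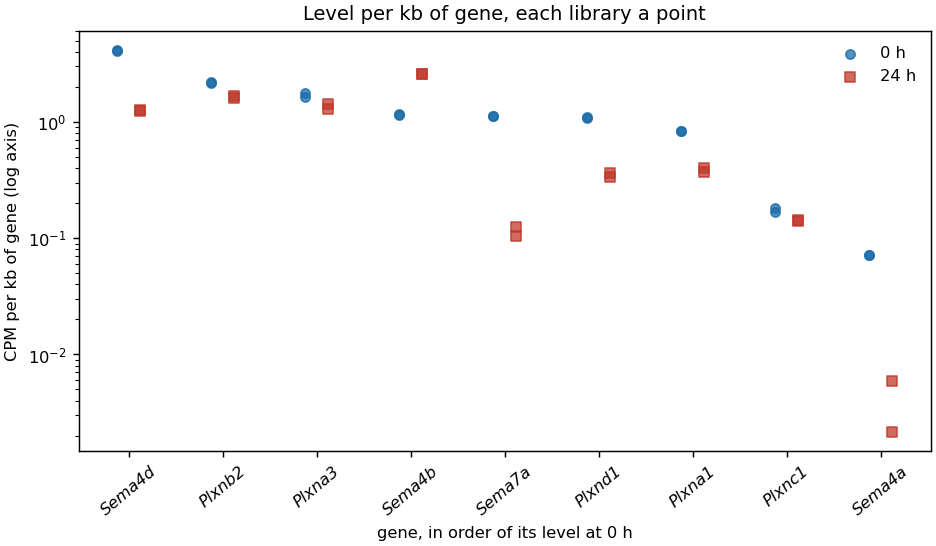
Level of 9 semaphorin and plexin genes in CPM per kb of gene, on a log axis, at 0 h (circles) and 24 h (squares), with 1 point per library. Sema4d is highest at 0 h at 4.09 CPM per kb, Sema4b at 24 h at 2.58, and Sema7a and Sema4a show the widest gaps between the time points.

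Sema7a (ENSMUSG00000038264, chr9:57940112-57962865, plus strand, with this and all gene positions on GRCm38) had 25.7 and 25.8 CPM at 0 h and 3.79 and 3.16 CPM at 30 min. Its level went on to 0.641 and 1.01 CPM at 1 h and reached its lowest values, 0.365 and 0.393 CPM, at 2 h, where 14 and 17 reads were left of 1190 and 1146 at 0 h. It then stood at 0.864 and 0.668 CPM at 6 h, between 1.19 and 2.06 CPM from 12 to 21 h, and 2.86 and 2.39 CPM at 24 h. Every induced library lay far below both 0 h libraries, and the 24 h libraries lay above both 2 h libraries but at 10.2% of the 0 h level on average.

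The log2 fold change of Sema7a from 0 h was -2.90 at 30 min (SE 0.11), -4.99 at 1 h, -6.07 at 2 h and -3.30 at 24 h. In the tests that follow, a change passes with an adjusted p under 0.01 and more than 2-fold. The values of Sema7a against 0 h are given without a test because the drop at 30 min chose the gene. At 30 min it stood first among 48 genes with at least 1 CPM on average that were called lower. Next came Tnfaip3, an inhibitor of NF-kB signalling (-2.27), and Nudt4, a hydrolase of inositol pyrophosphates (-2.21). This rank comes from the comparison that chose Sema7a, so it describes the choice and is not a further result. The change from 2 to 24 h used neither the 0 h nor the 30 min libraries: Sema7a rose by 2.77 on the log2 scale (SE 0.256, 6.84-fold; edgeR quasi-likelihood test, Benjamini-Hochberg adjusted p = 2.6e-09). Between these times no single step passed both thresholds, with 1.00 from 2 to 6 h (adjusted p = 0.0161), 0.98 from 6 to 12 h (adjusted p = 0.00255) and 0.79 from 12 to 24 h (adjusted p = 0.00126). By straight lines between time points, its level crossed 50% of the 0 h level at 17.3 min (17.6 and 17.1 min in the replicates), or at 10.5 min on a log scale, both earlier than the first sample taken.

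**Figure D2:**
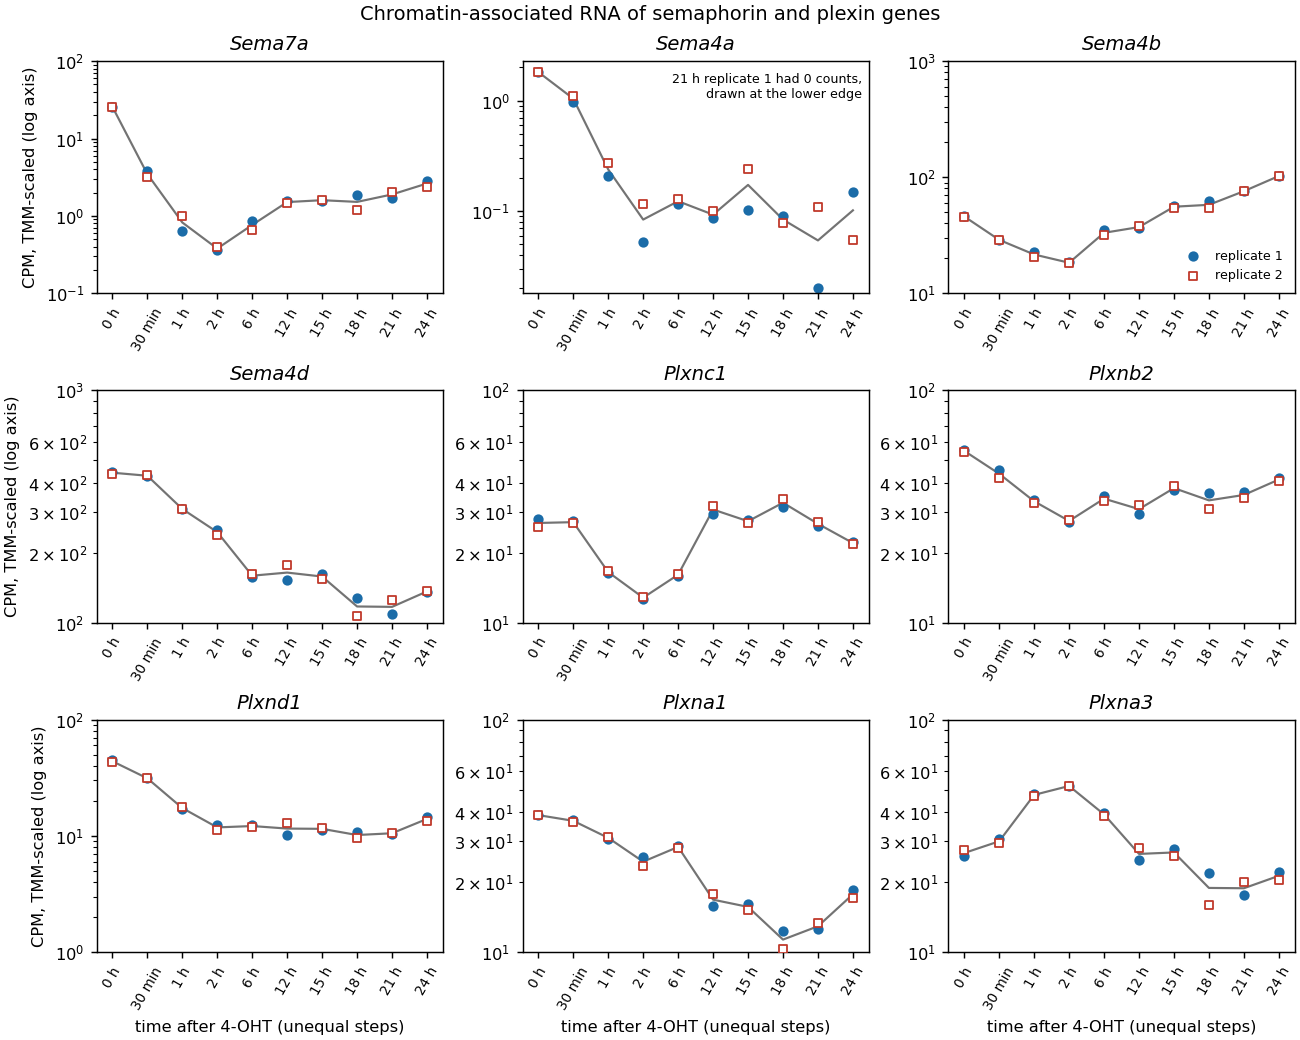
CPM (scaled by edgeR's TMM factors, log axis, differing between panels) of 9 genes at 10 time points drawn at equal distances, with circles for replicate 1, squares for replicate 2 and a line through the means. Sema7a has its lowest point at 2 h at 0.379 CPM on average, Sema4b is highest at 24 h at 102 CPM, and Plxna3 is the gene with its highest point at 2 h, at 51.9 CPM.

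Sema4a (ENSMUSG00000028064, chr3:88435959-88461182, minus strand), a transmembrane semaphorin known for its part in T cell priming, was the lowest of the 9 genes at 0 h, and its change at 2 h (20.5-fold) was second to that of Sema7a (67.2-fold). It had 84 and 81 reads (1.81 and 1.82 CPM) at 0 h, 36 and 50 reads at 30 min, 10 and 11 reads at 1 h, and 2 and 5 reads at 2 h. From 6 to 24 h the libraries held between 0 and 10 reads each. No induced library reached the 0 h values, and from 2 h on the counts were too few to rank the time points.

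Sema4a fell at 1 h (log2 fold change -2.93, SE 0.287, adjusted p = 2.39e-08) and at 2 h (-4.36, SE 0.366, adjusted p = 1.38e-09), and it was still lower at 24 h (-4.15, adjusted p = 1.31e-09). At 30 min the change was -0.79 (adjusted p = 0.014), which did not pass. The fall from 30 min to 1 h passed on its own (-2.14, SE 0.327, adjusted p = 1.62e-05). From 2 to 24 h the change was 0.21 (SE 0.754, adjusted p = 0.815), from 7 reads at each time. Single libraries moved the fold change by over 1.5 times: it was -5.04 at 2 h without replicate 2, -4.11 at 15 h without replicate 2, -4.99 at 24 h without replicate 1 and -4.03 at 21 h without replicate 1. Without replicate 2 of 21 h the time point was left at 0 reads and no fold is given. The calls were the same in all of these.

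Sema4b (ENSMUSG00000030539, chr7:80186841-80226527, plus strand), another transmembrane class 4 semaphorin, moved in both directions. It had 46.0 and 45.9 CPM at 0 h, 29.0 and 28.8 CPM at 30 min, 22.6 and 20.7 CPM at 1 h and 18.6 and 18.2 CPM at 2 h. It then had 34.9 and 31.6 CPM at 6 h, 36.4 and 38.1 CPM at 12 h, 56.8 and 54.7 CPM at 15 h, 61.9 and 53.9 CPM at 18 h, 76.0 and 75.6 CPM at 21 h and 102 and 103 CPM at 24 h. All libraries from 30 min to 12 h were below both 0 h libraries, and all from 15 h on were above them.

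Sema4b fell at 1 h (-1.08, SE 0.0628, adjusted p = 5.15e-12) and 2 h (-1.32, SE 0.0647, adjusted p = 1.67e-13), and rose at 24 h (1.16, SE 0.0576, adjusted p = 4.66e-14). From 2 to 24 h it rose by 2.48 on the log2 scale (SE 0.0636, 5.58-fold, adjusted p = 6.04e-19), with 1.46 of this after 12 h (adjusted p = 4.48e-15). At 30 min its change of -0.67 had an adjusted p of 1.14e-07 but was smaller than 2-fold. Scaled by library totals alone, which shift the median of all genes at 24 h to -0.27, the rise from 0 to 24 h was 0.90 and no longer reached 2-fold.

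Sema4d (ENSMUSG00000021451, chr13:51685529-51793747, minus strand), the most abundant of the genes at 0 h, went down from 1 h on, passed 2-fold only at 6 h and stayed down. It had 447 and 438 CPM at 0 h, 427 and 431 CPM at 30 min, 309 and 308 CPM at 1 h, 252 and 239 CPM at 2 h and 157 and 162 CPM at 6 h. From 12 to 24 h it lay between 107 and 176 CPM. Its 30 min libraries stood just below those of 0 h, and those of 18, 21 and 24 h were below those of 6 h.

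Sema4d fell at 6 h (-1.47, SE 0.0681, adjusted p = 4.11e-14) and at each later time, by 1.92 on the log2 scale at 21 h (adjusted p = 2.12e-16) and by 1.70 at 24 h (adjusted p = 1.34e-15). At 2 h the change of -0.85 had an adjusted p of 4.92e-10 but was smaller than 2-fold. The change from 2 to 24 h was -0.85 (SE 0.0689, adjusted p = 3.08e-10), also under 2-fold, but -1.12 with library totals alone, which passed.

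Sema4c (ENSMUSG00000026121, chr1:36548639-36558349, minus strand), a transmembrane ligand of Plxnb2, had 2 counts in replicate 1 of 2 h and 0 in the other 19 libraries. This is under 3 counts per library, the number that a count of 0 still allows, so no difference could be detected at this depth.

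Among the 5 plexins chosen, Plxnd1 (ENSMUSG00000030123, chr6:115954811-115995005, minus strand) fell most. It had 44.7 and 43.1 CPM at 0 h, 31.4 and 31.2 CPM at 30 min, 17.0 and 17.7 CPM at 1 h and 12.4 and 11.3 CPM at 2 h. From 6 to 21 h it lay between 9.51 and 12.9 CPM and at 24 h at 14.5 and 13.5 CPM. All induced libraries were below those at 0 h, and after 2 h the level hardly moved.

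Plxnd1 fell at 1 h (-1.34, SE 0.074, adjusted p = 2.34e-12), at 2 h (-1.89, SE 0.0782, adjusted p = 9.74e-15) and at all later times, by 2.11 on the log2 scale at 18 h (adjusted p = 4.46e-16) and by 1.65 at 24 h (adjusted p = 1.8e-14). The change from 2 to 24 h was 0.24 (SE 0.0881, adjusted p = 0.0175). Its time course was the one most like that of Sema4a among the 9 genes, with a Pearson correlation of mean log2 CPM of 0.979 over the 10 time points, which share the 0 h libraries. From 2 h on, Sema4a held only 0 to 10 reads per library, near the 0.1 CPM added before the log. The correlation therefore rests mainly on the early drop of both genes.

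Plxnb2 (ENSMUSG00000036606, chr15:89155549-89180788, minus strand), a receptor of class 4 semaphorins, had 55.3 and 54.5 CPM at 0 h, 45.4 and 42.1 CPM at 30 min, 33.8 and 32.9 CPM at 1 h and 27.1 and 27.8 CPM at 2 h. It then lay between 29.4 and 38.6 CPM from 12 to 21 h and had 42.1 and 40.5 CPM at 24 h. The lowest libraries were those of 2 h, and none of the induced libraries reached the 0 h level.

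At 2 h Plxnb2 fell by 1.00 on the log2 scale (SE 0.065, 2.00-fold, adjusted p = 2.01e-11), which is at the 2-fold limit. It was just under that limit, and the call was lost, with DESeq2, with either other scaling, with a stricter filter, without replicate 1 of 0 h and without replicate 1 of 2 h (-0.98). At 24 h the change was -0.41 (adjusted p = 4.94e-06), and from 2 to 24 h it was 0.59 (SE 0.0671, adjusted p = 6.79e-08), both smaller than 2-fold.

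Plxnc1 (ENSMUSG00000074785, chr10:94790866-94944835, minus strand), the receptor of Sema7a, had 27.8 and 25.9 CPM at 0 h and 27.4 and 26.8 CPM at 30 min. It went to 16.3 and 16.7 CPM at 1 h, 12.7 and 12.9 CPM at 2 h and 15.9 and 16.2 CPM at 6 h, and was back at 29.5 and 31.9 CPM at 12 h. From 15 to 21 h it lay between 26.1 and 34.2 CPM, and at 24 h it had 22.2 and 21.8 CPM. At 30 min, when Sema7a was already low, the Plxnc1 libraries lay within the range of 0 h.

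Plxnc1 fell at 2 h (-1.07, SE 0.0626, adjusted p = 3.61e-12). The change at 1 h was -0.70 (adjusted p = 2.72e-09) and that at 24 h was -0.29 (SE 0.0597, adjusted p = 0.000172), both smaller than 2-fold. From 6 to 12 h its change was 0.93 (SE 0.0604, adjusted p = 1.02e-10), and from 2 to 24 h it was 0.78 (SE 0.0651, adjusted p = 4.8e-10), again under 2-fold.

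Plxna1 (ENSMUSG00000030084, chr6:89316314-89362620, minus strand) was the last of the 8 falling genes to cross 50% of its 0 h level. It had 38.8 and 38.9 CPM at 0 h, 37.1 and 36.4 CPM at 30 min, 30.8 and 31.2 CPM at 1 h, 25.6 and 23.4 CPM at 2 h and 28.7 and 28.0 CPM at 6 h. From 12 to 21 h it lay between 10.3 and 17.8 CPM and at 24 h at 18.4 and 17.0 CPM. The libraries split into those up to 6 h and those from 12 h on, with no overlap.

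Plxna1 fell at 12 h (-1.21, SE 0.0722, adjusted p = 2.78e-12), 18 h (-1.77, SE 0.075, adjusted p = 3.18e-15) and 24 h (-1.13, SE 0.0723, adjusted p = 3.78e-12), and its change at 2 h was -0.67 (adjusted p = 3.3e-08). An annotated antisense gene on the other strand, Gm26811, overlaps 11308 bases of Plxna1 and had between 5 and 35 counts. The strand setting of the counting is not given in the sources used here, so reads of this gene and of Plxna1, which had 370 to 1796 counts, cannot be told apart in the overlap. The other overlapping genes held 0 counts, except for D430040D24Rik (0 to 1 count), which overlaps Sema4c.

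Plxna3 (ENSMUSG00000031398, chrX:74329066-74344689, plus strand) was the only one of the 9 genes with its highest level at 2 h. It had 25.8 and 27.5 CPM at 0 h, 30.6 and 29.4 CPM at 30 min, 47.8 and 47.1 CPM at 1 h and 51.7 and 52.0 CPM at 2 h. It was then at 39.8 and 38.5 CPM at 6 h, between 15.9 and 28.0 CPM from 12 to 21 h, and at 22.2 and 20.4 CPM at 24 h. All libraries from 30 min to 6 h were above both 0 h libraries, and both 24 h libraries were below them.

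The change of Plxna3 was 0.83 at 1 h (SE 0.0879, adjusted p = 7.56e-08) and 0.96 at 2 h (SE 0.088, adjusted p = 5.53e-09), just under 2-fold, and 1.00 at 2 h without replicate 2 of 0 h, which passed. Its fall from 2 to 24 h passed (-1.29, SE 0.0924, 2.44-fold, adjusted p = 3.81e-11). At 24 h it differed from 0 h by -0.33 (SE 0.0958, adjusted p = 0.00394), again under 2-fold.

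**Figure D3:**
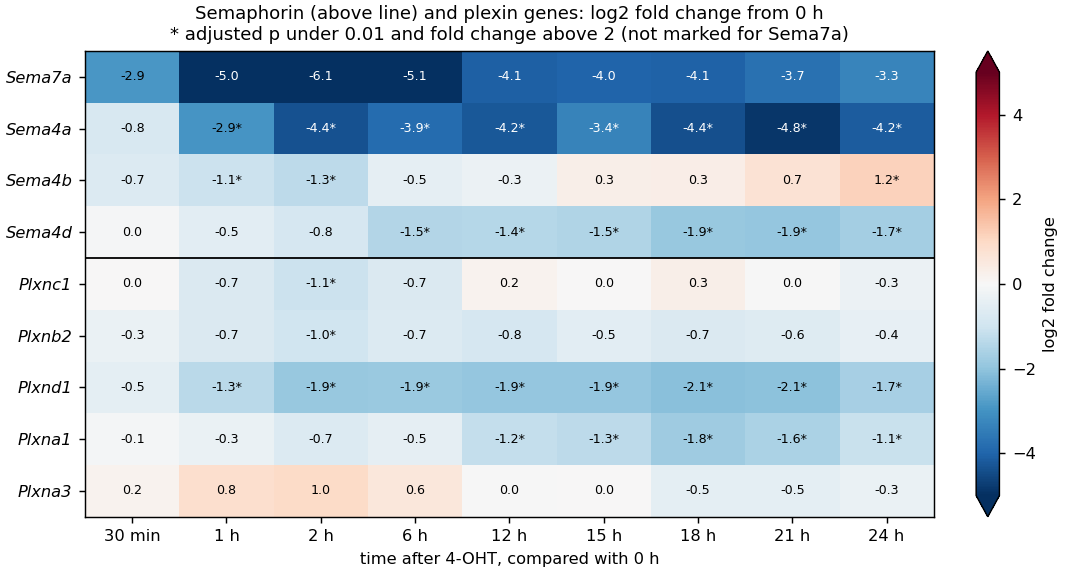
Log2 fold change from 0 h of 4 semaphorin genes (above the line) and 5 plexin genes (below) at 9 induced time points, with blue for lower, red for higher, colours cut off at 5 and asterisks where adjusted p was under 0.01 and the change above 2-fold (not marked for Sema7a, which was chosen on these data). Sema7a reaches -6.07 at 2 h, Plxnd1 is marked from 1 h on, Sema4d from 6 h on, Plxna1 from 12 h on, and Plxna3 is not marked.

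Counted together without Sema7a, none of the 8 other tested genes passed in either direction at 30 min (edgeR), where 0.410% of all genes were called lower and 0.0542% higher. With no adjustment, 4 of them had p under 0.05 and lower levels and 0 had higher levels, and DESeq2 also called 0. At 1 h 3 of 8 fell (Sema4a, Sema4b and Plxnd1), against 4.84% of all genes (2.33% rose), and at 2 h 5 of 8 fell (the same 3 with Plxnb2 and Plxnc1), against 6.91%. At 6 h 3 of 8 fell (Sema4a, Sema4d and Plxnd1; 9.13% of all genes). Sema4a, Sema4d, Plxnd1 and Plxna1 were the 4 of 8 that fell at 12, 15, 18, 21 and 24 h, beside 9.92%, 13.1%, 17.6%, 19.4% and 20.1% of all genes. Sema4b at 24 h was the only rise, where 20% of all genes rose.

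Before 24 h no rise passed with edgeR or DESeq2, while the share of all genes called higher went from 6.25% at 2 h to 10.9% at 6 h, 13.2% at 12 h, 15.3% at 15 h, 19.1% at 18 h and 20.1% at 21 h. At an unadjusted p under 0.05, Plxna3 was higher at 1, 2 and 6 h, Plxnc1 at 12 and 18 h and Sema4b at 15, 18 and 21 h, so 0 to 2 genes at each time. The median log2 fold change of the 8 genes stood at -0.21 at 30 min, reached -0.71 at 1 h and -1.04 at 2 h, was lowest at 18 h with -1.24 and ended with -0.77 at 24 h, while that of all genes tested stayed between -0.011 and 0.026. All comparisons with 0 h share the same 2 control libraries. With library totals alone, 4260 genes were called lower and 2603 higher at 24 h, against 3329 and 3323 with TMM scaling, and 4 of the 8 were called lower with either. Over the whole time course, 7 of the 8 changed by over 2-fold at some time (all but Plxna3, whose adjusted p was 1.5e-12 but whose changes were under 2-fold), against 51.9% of all genes.

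Without the 0 h libraries, 2 of the 9 genes rose from 2 to 24 h (Sema7a and Sema4b, 16.2% of all genes) and 1 fell (Plxna3, 16.6%). From 30 min to 1 h Sema4a fell, as did Sema7a, whose value of -2.09 shares the 30 min libraries with the comparison that chose it (3.08% of all genes fell and 1.69% rose). In the step from 1 to 2 h (1.08% of all genes fell and 1.54% rose) and in those from 2 to 6 h (3.26% and 3.91%) and from 6 to 12 h (2.11% and 2.69%) edgeR called none of the 9. At an unadjusted p under 0.05, 8 were lower from 1 to 2 h, 2 were lower and 5 higher from 2 to 6 h, and 3 were lower and 3 higher from 6 to 12 h. DESeq2 called 1 fall in the first of these steps, that of Sema7a (-1.08 and adjusted p = 0.0125 with edgeR), and 0 in the others. From 12 to 24 h Sema4b rose (6.43% of all genes) and none fell (9.05%) with edgeR or DESeq2, with 3 lower at an unadjusted p under 0.05.

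**Figure D4:**
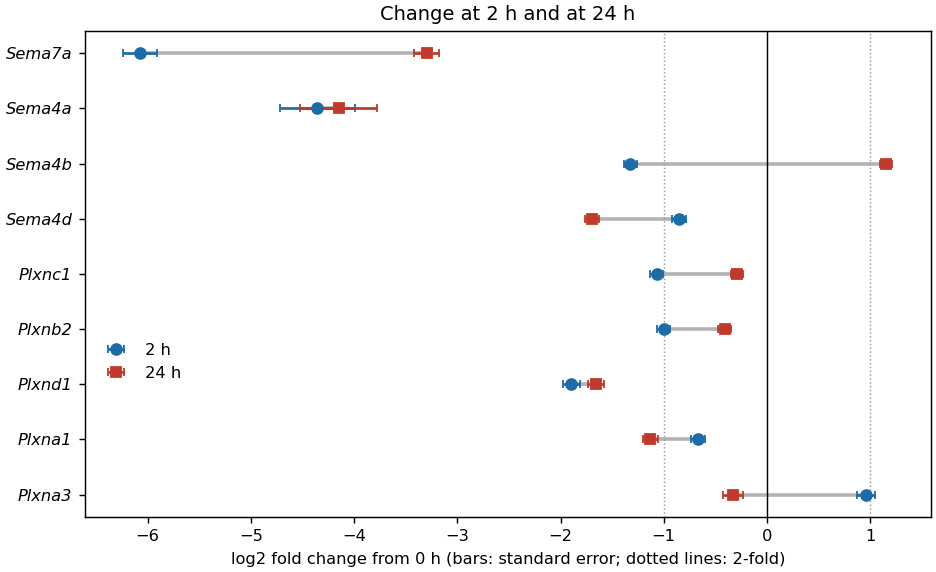
Log2 fold change from 0 h at 2 h (circles) and 24 h (squares) for 9 genes, with bars for the standard error and dotted lines at 2-fold. Sema4b moves from -1.32 to 1.16, Sema7a from -6.07 to -3.30 and Plxna3 from 0.96 to -0.33, while the points of Plxnd1 and of Sema4a lie close together.

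The order in time was read from when each mean level crossed 50% of its 0 h value, by straight lines between time points. Sema7a came first (17.3 min), then Sema4a at 35.0 min (32.6 and 37.2 min in the replicates), Plxnd1 at 50.1 min (48.9 and 51.4) and Sema4b at 54.4 min (57.8 and 51.7). Plxnc1 crossed at 1.83 h (1.66 and 1.99), Plxnb2 at 1.99 h in the mean but in only 1 of its replicates, Sema4d at 3.13 h (3.2 and 3.04) and Plxna1 at 10.6 h (10.3 and 11.0). Plxna3 did not reach 50%. The replicates of Plxnd1 and Sema4b lay too near each other for their order to be called distinct in so few libraries.

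Across the 10 time points, the mean log2 CPM of Sema7a ran closest to that of Gna15, a G protein subunit (Pearson r = 0.996), Rgs3, a regulator of G protein signalling (0.984), Tspan14, a tetraspanin (0.976), Mapkapk2, a kinase downstream of p38 (0.972), and Ptpn6, the phosphatase SHP-1 (0.969), among 12056 genes. Gna15 had 40.2 ± 0.849 CPM at 0 h, 5.52 ± 0.088 at 2 h and 14.1 ± 0.645 at 24 h (SD, n = 2). Rgs3 had 35.7 ± 0.312, 3.03 ± 0.397 and 7.27 ± 0.119 CPM. Both were lowest of these times at 2 h and higher again at 24 h, as Sema7a was, but none of the 5 genes was among the 5 most like it by Spearman correlation. The 10 points are means of the same 20 libraries for every gene, so the correlations are a description only. Among the 9 genes themselves, Plxnb2 was closest to Sema7a (r = 0.931), its receptor Plxnc1 less so (0.558), Sema4d ran with Plxna1 (0.907), and Sema4b and Plxna3 ran in opposite directions (-0.897).

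Of 19 other semaphorin and plexin genes, 12 were tested, and 5 of these fell and 0 rose at 2 h, beside 6.91% and 6.25% of all genes (for the rises, 2 had an unadjusted p under 0.05 with edgeR and DESeq2 called 0). Plxnb1, a receptor of Sema4d, went from 2.42 and 2.39 CPM at 0 h to 0.365 and 0.278 CPM at 2 h (log2 fold change -2.90, SE 0.262, adjusted p = 4.18e-09). Sema5a went from 8.62 and 9.34 to 1.15 and 1.36 CPM (-2.83, SE 0.126, adjusted p = 3.32e-14) and was back at 10.2 and 10.0 CPM at 24 h. Sema3g (-2.22), Sema6b (-1.75) and Sema6d (-1.10) were the other 3 falls, named after their values were seen. The median of the 12 genes was -0.79, with 0.026 over all genes.

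At 24 h, 5 of these 12 fell (3 without replicate 2 of 24 h) and 2 rose, beside 20.1% and 20% of all genes. Sema3g fell by 2.38 on the log2 scale (SE 0.257, adjusted p = 2.71e-08) and Sema6d, a ligand of Plxna1, by 2.06 (SE 0.237, adjusted p = 7.1e-08). Sema6b fell by 2.06, Sema3b by 1.49 and Plxnb1 by 1.21, these 3 named after their values were seen. Sema3b went from 0.302 and 0.428 to 0.119 and 0.136 CPM, and its call rests on few reads (0 to 19 counts per library). DESeq2 called 4 falls in this list. Sema6a, a transmembrane ligand of A-type plexins, rose from 0.216 and 0.315 to 5.34 and 3.61 CPM (4.05, SE 0.256, adjusted p = 3.18e-12), and Sema6c, named after its value was seen, from 0.475 and 0.473 to 3.22 and 3.47 CPM (2.81). Between 2 and 24 h Sema5a rose by 2.997 and Plxnb1 by 1.69 on the log2 scale (adjusted p = 3.68e-15 and 8.59e-05). Plxnb1, like Sema7a, had a partial return by 24 h, and Sema5a was near its 0 h level (0.17, adjusted p = 0.0826).

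Of 12 co-receptors and other semaphorin receptors, 7 were tested. At 2 h edgeR called 0 of them in either direction, as did DESeq2, while 2 were lower and 1 higher at an unadjusted p under 0.05; over all genes 6.91% fell and 6.25% rose. Itgb1, the integrin chain that binds Sema7a, had 138 and 142 CPM at 0 h and 69.7 and 73.3 CPM at 2 h (-0.97, SE 0.0552, adjusted p = 2.19e-12), which missed the 2-fold limit. At 24 h 3 of 7 rose, against 20% of all genes, and 0 fell with edgeR or DESeq2, with 1 lower at an unadjusted p under 0.05 (Itgb1, -0.98). The latter was called without replicate 1 of 0 h or replicate 2 of 24 h, and at 2 h 1 receptor was called lower without replicate 2 of 2 h. Nrp1, the neuropilin that serves class 3 semaphorins with A-type plexins, rose from 0.173 and 0.113 to 1.49 and 1.49 CPM (3.35, SE 0.339, adjusted p = 9.14e-09). Tyrobp, the adaptor that pairs with Plxna1, rose from 0.151 and 0.0900 to 0.924 and 0.922 CPM (2.90, SE 0.363, adjusted p = 2.56e-07) and Cd72, the lymphocyte receptor of Sema4d, from 18.5 and 18.9 to 42.1 and 40.9 CPM (1.15, SE 0.0582, adjusted p = 5.86e-14), both named after their values were seen.

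Tyrobp and Nrp1 are also made by natural killer and myeloid cells. The summed level of 3 natural killer markers was 0.540 to 0.713 CPM at 0 h and 2.24 to 2.63 CPM at 24 h, with Klrk1 and Klrb1c above 0 in every library and Ncr1 between 0 and 2 counts. That of 6 myeloid markers was 1.67 to 2.18 and 0.805 to 1.03 CPM. The sum of 5 stromal or endothelial markers was 337 to 339 and 397 to 434 CPM, nearly all from Pecam1, with Col1a1 and Col1a2 at 0 to 1 counts. Their part in the rise of these receptors was not tested.

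**Figure D5:**
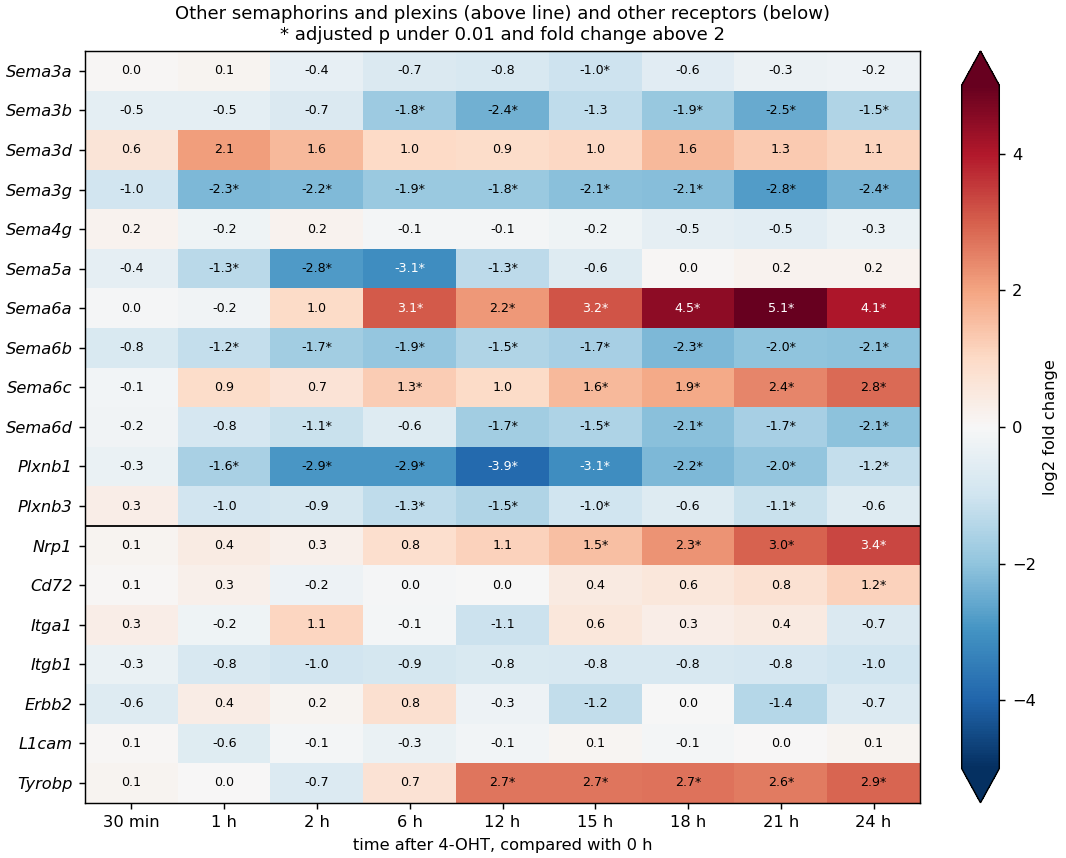
Log2 fold change from 0 h of 12 other semaphorin and plexin genes (above the line) and 7 other semaphorin receptors (below) at 9 time points, with blue for lower, red for higher and asterisks where adjusted p was under 0.01 and the change above 2-fold. Sema6a reaches 4.05 and Nrp1 3.35 at 24 h, Plxnb1 stands at -2.90 at 2 h, and Sema5a is marked as lower from 1 to 12 h and lies near 0 at 24 h.

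Of 34 genes that act behind plexins, 27 were tested. At 2 h 2 fell (7.41%) and 2 rose (7.41%), near the 6.91% and 6.25% of all genes. Fes, a tyrosine kinase bound by A-type plexins, fell from 31.5 and 32.7 to 8.66 and 7.86 CPM (-1.96) and Limk1, which phosphorylates cofilin, fell by 1.12 on the log2 scale, both named after their values were seen. Ptk2, the focal adhesion kinase, rose by 1.75 (SE 0.338, adjusted p = 0.000137) from 0.216 and 0.113 to 0.652 and 0.486 CPM. Arhgef11, a guanine nucleotide exchange factor that binds B-type plexins, rose by 1.38 (SE 0.0471, adjusted p = 3.82e-16) from 20.1 and 21.9 to 55.4 and 54.0 CPM.

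At 24 h 7 of these 27 rose and 1 fell, against 20% and 20.1% of all genes. Arhgef11 stood at 181 and 181 CPM (3.11, SE 0.046), and its relative Arhgef12 (1.76), the actin oxidase Mical1 (1.81), Ptk2 (1.61), Ranbp9 (1.33), Gipc1 (1.21) and Gsk3b (1.16) were the other rises, with Limk1 (-1.03, not called without replicate 2 of 24 h) the fall, all named after their values were seen. The median of the 27 genes was -0.20 at 2 h and 0.61 at 24 h. The share of risers was near that of all genes, while Arhgef11 was the gene with the largest rise in this list at 24 h.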

How the data were processed

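Chromatin-associated RNA of 20 libraries was sequenced in 75-base read pairs, with a kit that keeps the strand. The authors aligned reads to GRCm38 with STAR in nf-core/rnaseq 1.3 and counted them with featureCounts, reads in introns included; per the labels, CASAVA 2.17 was also used. They deposited raw counts per gene. The annotation release, the strand setting and the treatment of reads with several matches are not given in the sources used here. Counts were used as deposited, with groups and replicates taken from the labels.

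Positions and lengths came from GENCODE M21 on GRCm38, and promoter windows from RefSeq on GRCm38.p6. Genes reaching 10 counts in 2 or more libraries went into edgeR 4.0.16 (quasi-likelihood, TMM factors, time point as the factor, all 20 libraries in 1 model, R 4.3.3). P-values were adjusted by Benjamini-Hochberg over all 16601 genes, and calls needed an adjusted p under 0.01 with a change above 2-fold. CPM used TMM-scaled library sizes, and 0.1 CPM was added for correlations. Intervals from counts cover counting error only. The code was tested on simulated data. Alternatives were DESeq2 1.42.0, other scalings, filters and thresholds, a replicate block and leaving out libraries. Named genes were the 10 genes, the 2 largest called falls and rises of the lists at 2 and 24 h, the 5 genes most like Sema7a, its neighbours in rank at 30 min, Ikzf1 and overlapping genes. The genes and lists were chosen with earlier results of these data known.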

Additional observations from a re-analysis of the deposited data

How the results depend on the processing

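Most calls depended little on the processing, and those near the 2-fold limit or with few reads moved. With at least 10 counts required in every library, Sema4a was not tested, and the 5 falls at 2 h among the 8 other genes became 3, the 2 falls from 30 min to 1 h became 1, the falls of the other semaphorins and plexins went from 5 to 3 at 2 h and from 5 to 2 at 24 h, the receptor rises at 24 h from 3 to 1 and the signalling rises at 2 h from 2 to 1. A test against a 2-fold change in place of no change gave 3 falls at 2 h, 1 fall from 30 min to 1 h, 3 falls of other semaphorins and plexins at 24 h, and in the signalling list 1 fall and 1 rise at 2 h and 0 falls at 24 h. With library totals alone there were 0 rises at 24 h in place of 1, and 2 falls from 2 to 24 h in place of 1. At 24 h that scaling gave 1 fall among the receptors (main 0) and 2 in the signalling list (main 1). Counts over all genes moved too. Falls at 2 h were 754 of 12451 with the stricter filter and 661 of 16601 with the 2-fold test (main 1147 of 16601). Library totals gave 2603 rises at 24 h (main 3323) and 3708 falls from 2 to 24 h (main 2753). The step from 1 to 2 h gave 1 fall in place of 0 at an adjusted p under 0.05, with no filter, with DESeq2 and without the 6 libraries of 12, 18 and 21 h, an alternative chosen after seeing the data. An adjusted p under 0.05 gave 1 receptor rise at 2 h in place of 0.

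Leaving out each library in turn gave 0 to 1 rises among the other genes at 2 h (1 without replicate 2 of 0 h), 4 to 5 falls at 2 h, 0 to 1 falls from 1 to 2 h (1 without replicate 1 of 1 h or either 18 h library), 0 to 1 rises from 6 to 12 h (1 without replicate 1 of 6 h) and, with Sema7a counted, 7 to 9 of the 9 genes changed over the time course (main 8). The time course takes in the drop that chose Sema7a, so its place in this count is not a result. Without it the main count was 7 of 8. Other semaphorins and plexins lower at 24 h numbered 3 to 5 (3 without replicate 2 of 24 h), receptors lower at 2 h 0 to 1 (1 without replicate 2 of 2 h) and at 24 h 0 to 1 (1 without replicate 1 of 0 h or replicate 2 of 24 h), and signalling genes lower at 24 h 0 to 1 (0 without replicate 2 of 24 h).

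Signs turned only for values near 0 that were not called. Sema4a from 2 to 24 h (0.21) was -0.0546 with library totals, and from -0.631 to 0.891 with single libraries left out, and Plxnd1 from 2 to 24 h (0.24) was -0.0269 with library totals. Plxnc1 at 30 min (0.0105) was -0.0056 with no filter, -0.0033 in a fit of the 4 libraries compared and from -0.0408 to 0.0623 with single libraries left out. Its value at 15 h (0.0242) was -0.0259 with library totals and from -0.0285 to 0.0735 with single libraries left out. At 21 h (-0.0112) it was 0.0062 with DESeq2 size factors and with DESeq2, 0.0052 with 10 counts in every library, 0.0098 in the 4 libraries and from -0.0641 to 0.0377 with single libraries left out. Plxna3 at 12 h (-0.0106) ran from -0.0972 to 0.0683 with single libraries left out, and at 15 h (0.0078) it was -0.0421 with library totals, -0.0027 with no filter and from -0.0415 to 0.052 with single libraries left out. The cause of these changes was not tested.

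Replicate numbers did not pair the libraries in a steady way (correlation of deviations from -0.678 to 0.477 over 45 pairs of time points, mean 0.0304). In single pairs of time points the deviations ran together or in opposite directions, and batches shared between time points were not tested. The fit with the replicate block still gave 5 falls at 2 h and 4 falls and 1 rise at 24 h. It changed none of the counts of calls for the lists used here, while over all genes it gave 66 falls at 30 min (main 68). Depth limited Sema4a and Sema4c most.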
